A study of Drosophila melanogaster with 9 samples.

Results

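Glycolysis breaks glucose down to pyruvate in a chain of soluble enzymes, each of which hands its product to the next, and yields ATP and NADH without oxygen. In the insect brain, glia take up sugar from the blood, run much of the glycolysis and pass lactate and alanine on to neurons, which oxidise them in their mitochondria. The enzymes described here are the hexokinase Hex-A, Pgi, Pfk, Tpi, Gapdh1, Pgk, Pglym78 and Eno, in the order of the pathway. They were chosen as the probe sets whose only gene in the platform annotation is one of 10 named glycolytic enzyme genes. This gave 8 probe sets, 1 for each of 8 genes, of 18952 probe sets and 11982 genes with a probe set of their own. Gapdh2, which encodes a further glyceraldehyde 3-phosphate dehydrogenase, and PyK, the pyruvate kinase, had no probe set by that rule and were not analysed here.

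RNA came from dissected brains of Drosophila melanogaster that had aged naturally to 3, 30 or 60 days (3d, 30d and 60d), and each age was measured on 3 Affymetrix Drosophila 2.0 arrays. Per the labels, flies were kept on cornmeal and molasses food with dry yeast. The labels give no genotype, strain, sex or mating state, and do not say whether an array held 1 animal or a pool, so the p-values cover array-to-array spread alone, which may be technical. The comparisons ask how transcript levels change as the brain ages, and over which interval of adult life.

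Signals are the deposited linear intensities in arbitrary units, and changes are differences of log2(signal + 1) ± SE from limma, where -1 is a halving. A gene is said to have risen or fallen when its Benjamini-Hochberg adjusted p over all 8171 genes tested was under 0.05. The level of 1 probe set cannot be set against that of another, so only changes are compared between enzymes. Probe sets whose name ends in _s_at, here those of Pgi, Tpi and Eno, may match transcripts of more than 1 gene. All 8 enzymes passed the filter on low signal, and the lowest signal of any of them on any array was 99.998, against a filter value of 51.3.

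The arrays were not equally alike within an age, and this touches every result below. Within an age, the SD on the log2 scale had a median over all genes tested of 0.229 at 3d, 0.0938 at 30d and 0.209 at 60d, and over the 8 enzymes of 0.214, 0.0498 and 0.338. On the first principal component of all genes tested, which held 53.2% of the variance, the 3d arrays lay from -37.1 to -20.9 and the 30d arrays from 18.1 to 22.8. The 60d arrays did not stay together: replicate 1 lay at -11.6, on the side of the 3d arrays, replicate 2 at 21.7 and replicate 3 at 7.1. The GAPDH control's 3' signal over its 5' signal, a measure of RNA quality, was 5.06 on the log2 scale on 3d replicate 1, against 1.58 to 2.07 on the other arrays. Results are therefore also given without the first arrays of 3d and 60d. The ratio on 60d replicate 1 was 1.80, so that array stands out by its place near the 3d arrays alone. Larger differences between 3d and 60d without it follow in part from that choice and are no separate result.

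Most of the measured glycolytic enzymes had less transcript in middle-aged than in young brains. Between 3d and 30d, 6 of 8 fell, 0 rose and 2 did not pass, where 21.3% of all genes tested fell and 21.0% rose. The arrays of the 2 ages did not overlap for the same 6, all lower at 30d, where 29.6% of all genes were lower without overlap and 28.3% higher. The median change of the 8 was -0.69, and the median over all genes tested was -0.01. These backgrounds were not matched for signal. With the filter at the 60th percentile instead of the 40th, 26.0% of all genes tested fell and 17.5% rose, with a median of -0.10. The falls were deepest in the middle of the pathway, at Gapdh1 and Pgk, while the hexokinase at its entry stood at 0.07 ± 0.12. In bulk tissue, fewer cells of a type and less RNA per cell cannot be told apart.

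**Figure D1:**
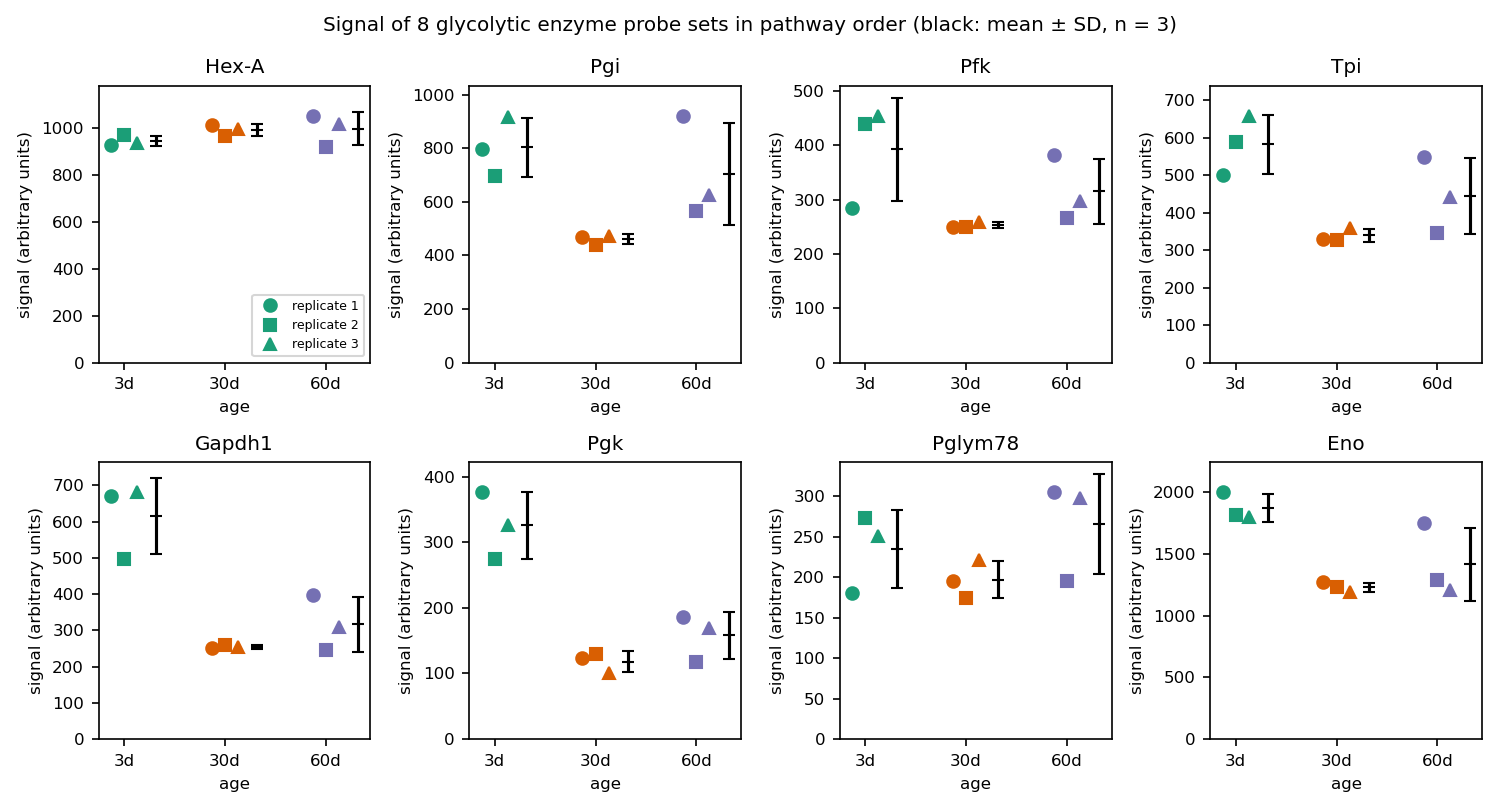
Signal of each enzyme's probe set (vertical axes, arbitrary units from 0) at 3d, 30d and 60d (horizontal axes). Points are single arrays, shaped by replicate number, and black bars are the mean ± SD of 3 arrays; all 30d points lie below all 3d points for every enzyme except Hex-A and Pglym78.

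Hex-A (CG3001, probe set 1625638_a_at), the hexokinase that phosphorylates glucose and so traps it in the cell, was not called in any comparison. The 3d arrays, here and below in the order of replicates 1, 2 and 3, read 925, 967 and 934, the 30d arrays 1012, 963 and 993, and the 60d arrays 1051, 915 and 1017. The 3 ages overlapped. The change was 0.07 ± 0.12 from 3d to 30d (adjusted p = 0.66, 95% interval -0.20 to 0.34) and 0.08 ± 0.12 from 3d to 60d (adjusted p = 0.688, 95% interval -0.19 to 0.34). Its sign turned with median centring, to -0.19 and -0.092.

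Pgi (CG8251, probe set 1638550_s_at), the isomerase that turns glucose 6-phosphate into fructose 6-phosphate, was lowest in middle age. Its signal was 798, 697 and 916 on the 3d arrays, 470.0, 441 and 473 on the 30d arrays, and 922, 568 and 627 on the 60d arrays. Every 30d array was below every 3d array and every 60d array, and 60d replicate 1 was above all 3d arrays. Pgi fell by 0.79 ± 0.18 from 3d to 30d (adjusted p = 0.00876), a 1.73-fold lower level. Its 60d level differed from that of 3d by -0.21 ± 0.18 (adjusted p = 0.434), and without the first arrays of 3d and 60d by -0.42 (adjusted p = 0.036). Without 60d replicate 2 it was -0.071.

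Pfk (CG4001, probe set 1634739_a_at), the phosphofructokinase that makes the committing and most regulated step, showed a smaller fall that depended on single arrays. Its signal was 284, 439 and 454 at 3d, 250.1, 249.6 and 259 at 30d, and 381, 266 and 298 at 60d. The 30d arrays lay below all others, and 3d replicate 1 lay well below the other two 3d arrays. Pfk fell by 0.60 ± 0.20 from 3d to 30d (adjusted p = 0.03), and this call was lost when 3d replicate 2 or 3 or any 30d array was left out (adjusted p from 0.0761 to 0.12). The difference between 3d and 60d was -0.30 ± 0.20 (adjusted p = 0.292). It was -0.52 without 3d replicate 1 (adjusted p = 0.0351) and -0.66 without the first arrays of both ages (adjusted p = 0.0023).

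Aldolase, which splits fructose 1,6-bisphosphate ahead of Tpi, is not among the 8 but stands between Pfk and Tpi. It was looked up after the values of the other enzymes had been seen. The brighter probe set of Ald1 gave 1441, 1384 and 1613 at 3d, 1411, 1374 and 1249 at 30d, and 1574, 1491 and 1412 at 60d. These ranges overlapped, and the change was -0.14 ± 0.13 from 3d to 30d and 0.01 ± 0.13 from 3d to 60d (adjusted p = 0.405 and 0.947). A dimmer Ald1 probe set gave 106, 134 and 138 at 3d, 125, 142 and 136 at 30d, and 249, 161 and 193 at 60d, so the pair differed at 60d, where only the dimmer one was above all its 3d arrays.

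Tpi (CG2171, probe set 1637816_s_at), the isomerase that lets both products of the split sugar go on down the pathway, was also lower in middle age than in youth. Its signal was 500.1, 587 and 659 at 3d, 331, 327 and 360.1 at 30d, and 547, 344 and 441 at 60d. All 30d arrays were below all 3d arrays, and the 60d arrays reached from the 30d range into the 3d range. Tpi fell by 0.77 ± 0.18 from 3d to 30d, a 1.70-fold lower level (adjusted p = 0.00851). The difference between 3d and 60d was -0.40 ± 0.18 (adjusted p = 0.128), and without 60d replicate 1 it was -0.57 (adjusted p = 0.0289).

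Gapdh1 (CG12055, probe set 1640907_at), a glyceraldehyde 3-phosphate dehydrogenase, makes the NADH of the pathway, and its transcript was lower at both later ages. Its signal was 672, 496 and 682 at 3d, 250.4, 261 and 254 at 30d, and 397, 246 and 308 at 60d. Every array of 30d and of 60d was below every 3d array. Gapdh1 fell by 1.26 ± 0.19 from 3d to 30d, to a 2.39-fold lower level (adjusted p = 0.0024). At 60d it had fallen by 0.97 ± 0.19 against 3d, a 1.96-fold lower level (adjusted p = 0.00676).

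Pgk (CG3127, probe set 1639766_at), the phosphoglycerate kinase, makes the first ATP of the pathway, and its change was the largest of the 8 in each comparison with 3d. Its signal was 376, 274 and 327 at 3d, 124, 129.9 and 99.998 at 30d, and 186, 118 and 170.1 at 60d. No array of 30d or 60d reached the lowest 3d array. Pgk fell by 1.45 ± 0.20 from 3d to 30d, to a 2.74-fold lower level (adjusted p = 0.00203). At 60d it stood 2.08-fold below 3d, at -1.05 ± 0.20 (adjusted p = 0.0053). By size of change it was number 18 from the lowest of 8171 genes at 30d and number 65 at 60d.

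Pglym78 (CG1721, probe set 1627227_at), a phosphoglycerate mutase, and Eno (CG17654, probe set 1634065_s_at), the enolase, act one after the other. Pglym78 gave 180.5, 273 and 251 at 3d, 196, 175 and 221 at 30d, and 305, 195 and 298 at 60d. The ages overlapped throughout, and the change was -0.24 ± 0.21 at 30d (adjusted p = 0.369, 95% interval -0.69 to 0.22) and 0.17 ± 0.21 at 60d (adjusted p = 0.579, 95% interval -0.28 to 0.63). The sign at 60d turned without 3d replicate 1 (-0.0053).

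Eno gave 1999.9, 1814 and 1797 at 3d, 1269, 1228 and 1195 at 30d, and 1748, 1289.8 and 1204 at 60d. Both later ages lay below all 3d arrays, although 60d replicate 1 came close to them. Eno fell by 0.60 ± 0.16 from 3d to 30d, a 1.52-fold lower level (adjusted p = 0.0127), which was no longer called when 30d replicate 3 was left out (adjusted p = 0.0515). At 60d the difference was -0.42 ± 0.16 (adjusted p = 0.078), and without 60d replicate 1 it was -0.58 (adjusted p = 0.0113).

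**Figure D2:**
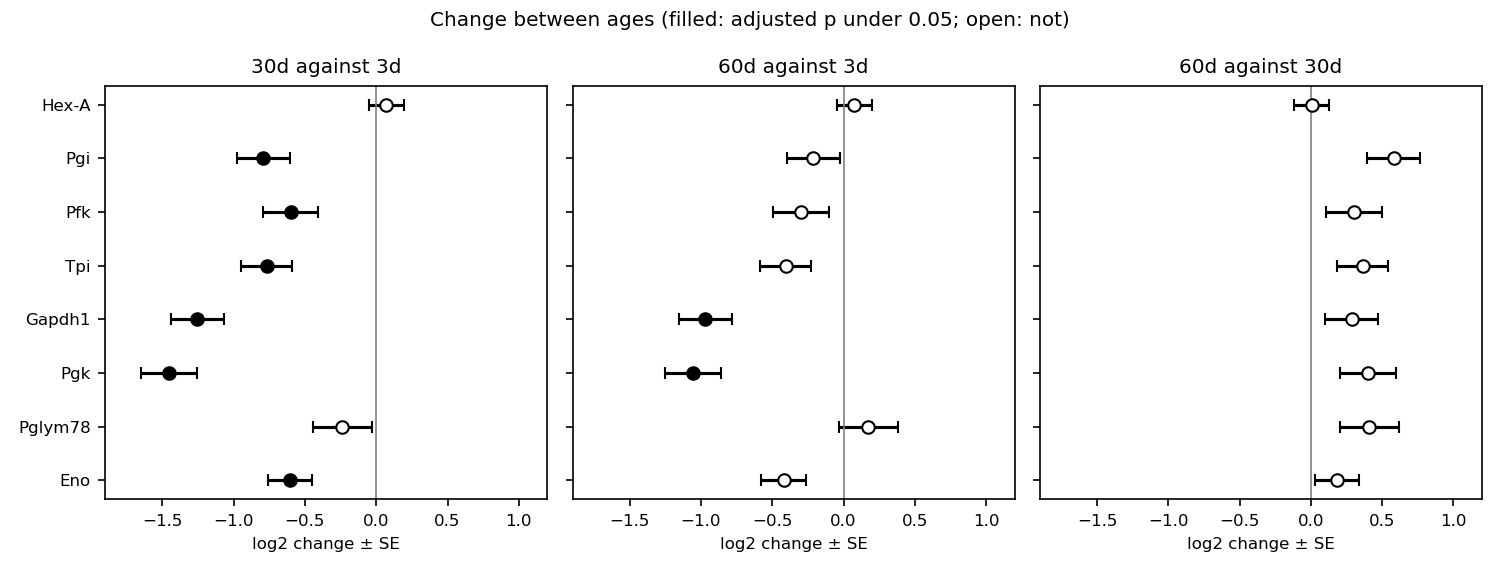
Log2 change ± SE (horizontal axes) of each of the 8 enzymes in pathway order (vertical axis) for 30d against 3d, 60d against 3d and 60d against 30d. Filled points had an adjusted p under 0.05 and open points did not: 6 are filled at 30d against 3d, 2 at 60d against 3d and 0 at 60d against 30d.

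In old brains fewer of the enzymes passed the test against young ones, and Gapdh1 and Pgk were those that did. Between 3d and 60d 2 of 8 fell, 0 rose and 6 did not pass, where 10.5% of all genes tested fell and 8.03% rose. The arrays did not overlap for 3 of the 8 (Gapdh1, Pgk and Eno), where 17.6% of all genes were lower at 60d without overlap. The median change of the 8 was -0.35, and that over all genes tested was 0.04. The count rested on 60d replicate 1: without it 4 of the 8 fell, and 14.3% of all genes. The median weakened to -0.21 without 60d replicate 2 and to -0.25 without 3d replicate 3, with the count still at 2. Without the first arrays of 3d and 60d together 6 of the 8 fell (all but Hex-A and Pglym78), with a median of -0.60, and 24.8% of all genes fell and 26.3% rose. As 60d replicate 1 was left out for its likeness to the 3d arrays, a larger difference follows in part from that choice.

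Between 30d and 60d limma called 0 of the 8 in either direction, where 0.526% of all genes tested rose and 0.0122% fell. All 8 changes were above 0, from 0.0050 for Hex-A to 0.58 for Pgi, with a median of 0.33 against 0.02 over all genes. At an unadjusted p under 0.05 only Pgi was higher, at 0.58 ± 0.18 (adjusted p = 0.2). Without 60d replicate 2 this became a call (0.72, adjusted p = 0.0491), and 4.36% of all genes rose and 1.79% fell in that fit. Without 60d replicate 1 the change of Pgi was 0.37. The median without 60d replicate 1 was 0.18, and Hex-A then stood at -0.036. The 60d arrays lay above all 30d arrays for 2 of the 8, Pgi and Pfk, where 17.2% of all genes were higher at 60d without overlap.

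The later interval's change (30d to 60d) less the earlier one's (3d to 30d) tests whether the course was the same in both intervals. It was above 0 and called for 4 of the 8, where 10.1% of all genes tested were called in that direction and 8.3% in the other. It was 1.86 ± 0.34 for Pgk, 1.54 ± 0.32 for Gapdh1, 1.37 ± 0.32 for Pgi and 1.13 ± 0.31 for Tpi (adjusted p = 0.0307, 0.0307, 0.0322 and 0.0381). None of these 4 calls held, leaving 0, when 3d replicate 3, 60d replicate 3 or any 30d array was left out, and each of these fits also called at most 1 of all genes in that direction. Without 60d replicate 2, 7 of the 8 were called, with 19.9% of all genes, and without the first arrays of 3d and 60d 6 were, with 24.4% of all genes.

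**Figure D3:**
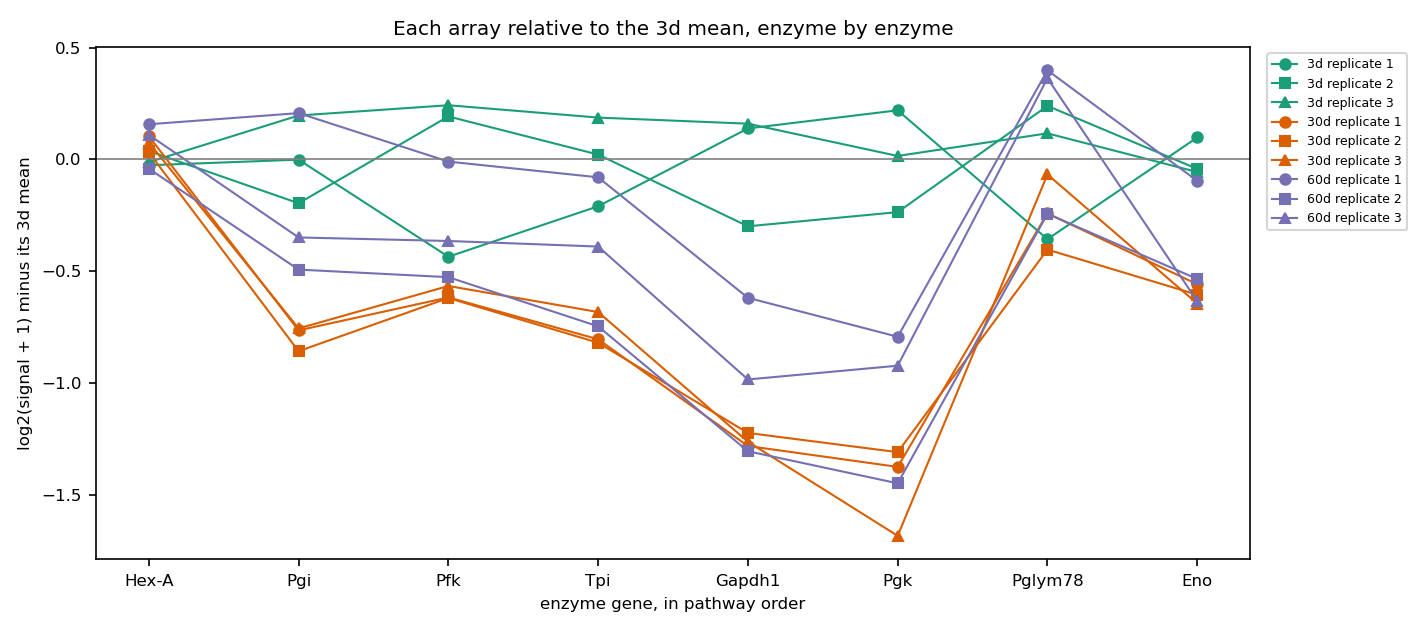
Log2(signal + 1) of each enzyme on each array minus that enzyme's 3d mean (vertical axis), with the enzymes in pathway order (horizontal axis) and 1 line per array. The 30d arrays and 60d replicate 2 dip lowest, at Gapdh1 and Pgk, and 60d replicate 1 stays between -0.08 and 0.21 up to Tpi.

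Read array by array, the 60d samples differed among themselves. The median of the 8 enzymes relative to their 3d means was -0.69, -0.72 and -0.66 on 30d replicates 1, 2 and 3, and -0.04, -0.53 and -0.38 on those of 60d. On 60d replicate 1, 3 of the 8 enzymes were below the 3d range, on replicate 2 there were 7 and on replicate 3 there were 5. The share of all genes below their 3d range on each array was not computed, so these counts have no background. The order of the 60d arrays in this median is also their order on the first principal component of all genes. Even on 60d replicate 1, Gapdh1 and Pgk stood at -0.62 and -0.79.

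Ratios within an array, which a scaling factor per array does not alter, were added after the values had been seen and are given with no test. Hex-A, taken as the denominator for its small change, makes them follow each enzyme's own change, and no difference between enzymes was tested. The log2 ratio of Pgk to Hex-A was -1.30, -1.82 and -1.52 on the 3d arrays, -3.03, -2.89 and -3.31 on the 30d arrays and -2.50, -2.96 and -2.58 on the 60d arrays. That of Gapdh1 to Hex-A was -0.46, -0.96 and -0.45 at 3d, -2.02, -1.88 and -1.97 at 30d, and -1.40, -1.89 and -1.72 at 60d. In both ratios every later array lay below every 3d array. Of 7 such ratios to Hex-A, 6 were lower at 30d without overlap (all but that of Pglym78), and 4 were lower at 60d (those of Tpi, Gapdh1, Pgk and Eno). The share of all genes with a lower ratio to Hex-A was not computed, so these counts have no background. Without the ratio, 29.6% of all genes were lower without overlap at 30d and 17.6% at 60d.

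Scaling moved the genes as a whole, so the enzymes are also given relative to it. With median centring the median of all genes for 30d against 3d shifted to -0.29, and the median of the 8 enzymes to -0.95. Relative to all genes the enzymes stood at -0.67 as reported, at -0.66 with median centring, and between -0.86 and -0.50 over all 22 alternatives. For 60d against 3d they stood at -0.39, between -0.59 and -0.24. Of all calls for 30d against 3d 50.4% were falls as reported, 64.4% with quantile normalization, 66.6% with cyclic loess and 81.6% with median centring. For 60d against 3d these shares were 56.6%, 68.7%, 67.2% and 81.9%, and for the difference between intervals 45.0%, 28.1%, 22.6% and 11.2%.

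The array carries control probe sets along the GAPDH transcript, whose names do not say which of the GAPDH genes they read, and these were examined after the Gapdh1 values had been seen. They serve as signs of RNA quality, from the 5' end through the middle to the 3' end. The 3' set of the older design gave 1515, 1598 and 1745 at 3d, 1067, 1004 and 964 at 30d, and 1601, 1066 and 1297 at 60d. The main 3' set of the newer design gave 570.1, 941 and 827 at 3d, 334.1, 372 and 351 at 30d, and 513, 248 and 384 at 60d. Both were lower on every 30d array than on every 3d array, as was the middle set of the older design, which makes 3 of 7 such sets.

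The 5' sets read otherwise on 1 array. The older 5' set gave 45.3, 533 and 426 at 3d, so that 3d replicate 1 was far below the rest, and 265, 239 and 245 at 30d. An exact permutation test over all arrangements of the arrays, with an F statistic for age, gave p from 0.025 to 0.975 over the 7 sets. The smallest p it can give is 0.00357, and the lowest adjusted p was 0.1125. Gapdh1's own probe set was not low on 3d replicate 1, at 672 against 496 and 682. The calls of Gapdh1 and Pgk for both later ages against 3d held with the GAPDH 3' to 5' ratio as a covariate and with 3d replicate 1 left out. As that ratio stood apart on 3d replicate 1 alone, these are nearly the same check. The enzymes' median for 60d against 3d was -0.441 in both. Neither can address differences in RNA quality among the other arrays.

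**Figure D4:**
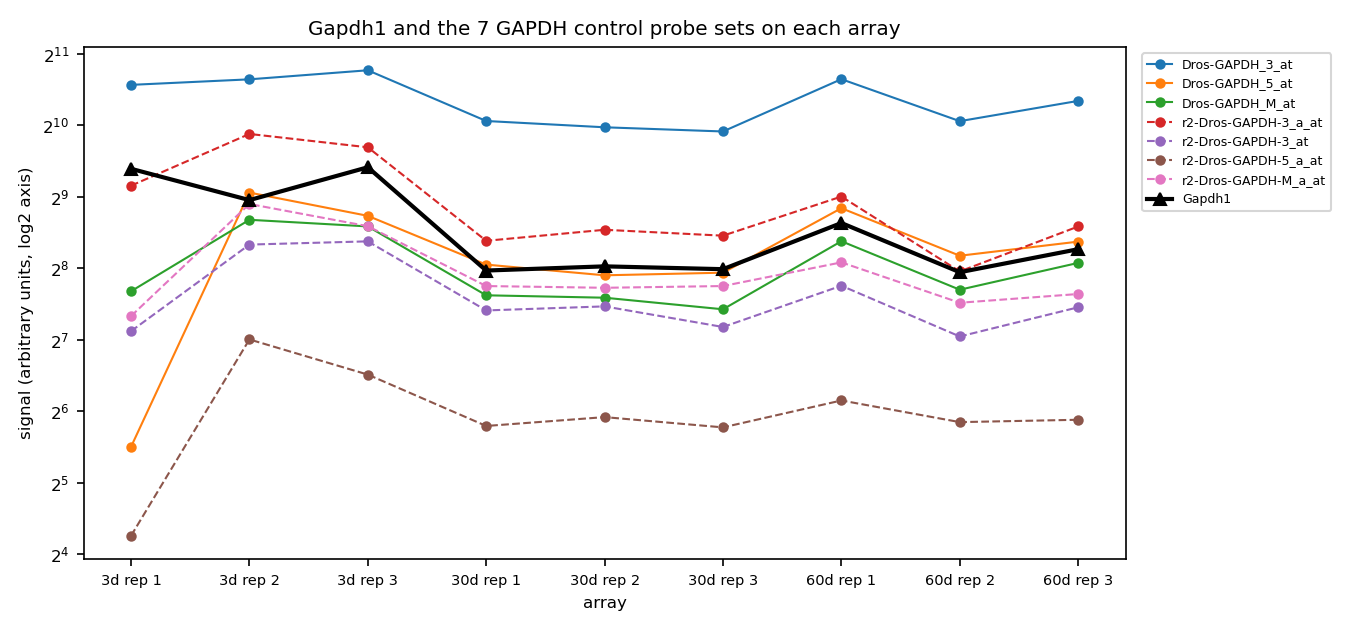
Signal (vertical axis, arbitrary units, log2 scale) of Gapdh1 (black triangles) and the 7 GAPDH control probe sets (solid lines, older design; dashed lines, newer design) on each array (horizontal axis). Both 5' sets drop on 3d replicate 1, to 45.3 and 19.1, while Gapdh1 stays at 672 there.

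Genes around the pathway did not all share the fall. Of all genes tested 21.3% fell and 21.0% rose at 30d against 3d, and 10.5% fell and 8.03% rose at 60d against 3d. The other glycolytic isoenzymes and aldolase were mostly dim: of 13 that matched the annotation 5 passed the filter, and between 3d and 30d limma called 0 of them, also at an unadjusted p under 0.05. The one with the smallest p was Pfrx, which makes and breaks the activator of phosphofructokinase, at -0.40 ± 0.19 (adjusted p = 0.101). Between 3d and 60d 1 rose and 4 did not pass. That was fbp, the fructose bisphosphatase that runs the Pfk step backwards, at 0.81 ± 0.25 (adjusted p = 0.0424), a call held in 6 of 22 alternatives. Without 60d replicate 1 it was 0.53 (adjusted p = 0.0762). Its signal was 86.9, 126 and 122 at 3d and 289, 132 and 191 at 60d.

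Of 9 tested genes for sugar uptake, trehalose and glycogen, 1 fell, 2 rose and 6 did not pass between 3d and 30d. Of all genes tested 21.3% fell and 21.0% rose, so the list does not stand out. AGBE, the glycogen branching enzyme, fell by 0.77 ± 0.28, while the sugar transporter sut4 and Treh, the trehalase that frees glucose from the blood sugar trehalose, rose by 0.51 ± 0.16 and 0.41 ± 0.14 (adjusted p = 0.043, 0.0257 and 0.0308). Those calls held in 13 of 22, 14 of 21 and 15 of 22 alternatives. AGBE read 259 on 3d replicate 1 against 114 and 121 on the other 3d arrays, and its change was -0.39 without that array (adjusted p = 0.0803) and -0.28 with the other 3' to 5' ratios as a covariate (adjusted p = 0.244). The rise of sut4 was 0.18 to 0.25 under the 3 other normalizations (adjusted p from 0.203 to 0.299), and that of Treh at 30d was 0.15 with median centring (adjusted p = 0.477). At 60d, where 8.03% of all genes rose, Treh alone rose, by 0.64 ± 0.14 (adjusted p = 0.00997, held in 20 of 22), and 8 did not pass. Its signal was 676, 695 and 735 at 3d, 985, 919 and 899 at 30d, and 1238, 1085 and 964 at 60d, with all later arrays above all 3d arrays.

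In the pentose phosphate pathway, which branches off ahead of Pgi, limma called 0 of 4 tested genes at 30d or 60d against 3d. At an unadjusted p under 0.05 none passed at 30d and 2 were higher at 60d. The smallest p at both ages was that of the transketolase CG8036, at -0.31 ± 0.23 and 0.65 ± 0.23 (adjusted p = 0.293 and 0.0736).

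Most genes that handle pyruvate, lactate and the glycerol 3-phosphate shuttle were lower in middle age. Of 15 tested, 10 fell, 0 rose and 5 did not pass between 3d and 30d, with a median of -0.65, where 21.3% of all genes tested fell and 21.0% rose. The acetyltransferase subunit of pyruvate dehydrogenase, muc, fell by 1.10 ± 0.14, and Mpc1, a subunit of the mitochondrial pyruvate carrier, by 0.91 ± 0.23 (adjusted p = 0.00176 and 0.0119). Signals of muc were 1224, 971 and 1145 at 3d, 526, 506 and 516 at 30d, and 659, 541 and 559.8 at 60d, so that both later ages lay below all 3d arrays. Both calls held in all 22 alternatives. For the difference between intervals 5 of the 15 were called above 0 and 0 below, with a median of 0.93, where 10.1% of all genes were called above 0. Among the enzymes 4 of 8 were, with a median of 1.02. In the sugar uptake list 3 of 9 were called above 0, in the pentose phosphate list 1 of 4 and among the isoenzymes 0 of 5, with 0 below in each.

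At 60d 5 of those 15 fell, 1 rose and 9 did not pass, where 10.5% of all genes tested fell and 8.03% rose. Here muc fell by 0.92 ± 0.14, the mitochondrial malic enzyme Men-b by 0.80 ± 0.13 and the glycerol 3-phosphate dehydrogenase Gpdh1 by 0.79 ± 0.23 (adjusted p = 0.0021, 0.00232 and 0.0386). The first pair of calls held in all 22 alternatives and that of Gpdh1 in 10. Pepck1, which takes carbon in the opposite direction towards sugar synthesis, rose by 1.42 ± 0.32 (adjusted p = 0.012, held in all 22), from signals of 296, 156 and 169 at 3d to 826, 339 and 543 at 60d.

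Of 12 regulators linked to glycolytic genes, 3 fell, 1 rose and 8 did not pass between 3d and 30d, a share of falls near the 21.3% of all genes tested. The HIF partner tgo fell by 1.03 ± 0.21 and the JNK kinase bsk by 0.54 ± 0.13, and foxo, the insulin-responsive factor, rose by 0.59 ± 0.13 (adjusted p = 0.00519, 0.0111 and 0.00726, held in 22, 19 and 21 of 22 alternatives). The fall of bsk depended on the choice of probe set: with the mean of its probe sets it was -0.054 at 30d and -0.27 at 60d (adjusted p = 0.833 and 0.328). With median centring foxo stood at 0.33 at 30d (adjusted p = 0.0816). At 60d 2 fell, 1 rose and 9 did not pass, where 10.5% of all genes tested fell and 8.03% rose. Here tgo stood at -0.86 ± 0.21, bsk at -0.55 ± 0.13 and foxo at 0.52 ± 0.13 (adjusted p = 0.0172, 0.018 and 0.0212, held in 20, 18 and 17 of 22).

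**Figure D5:**
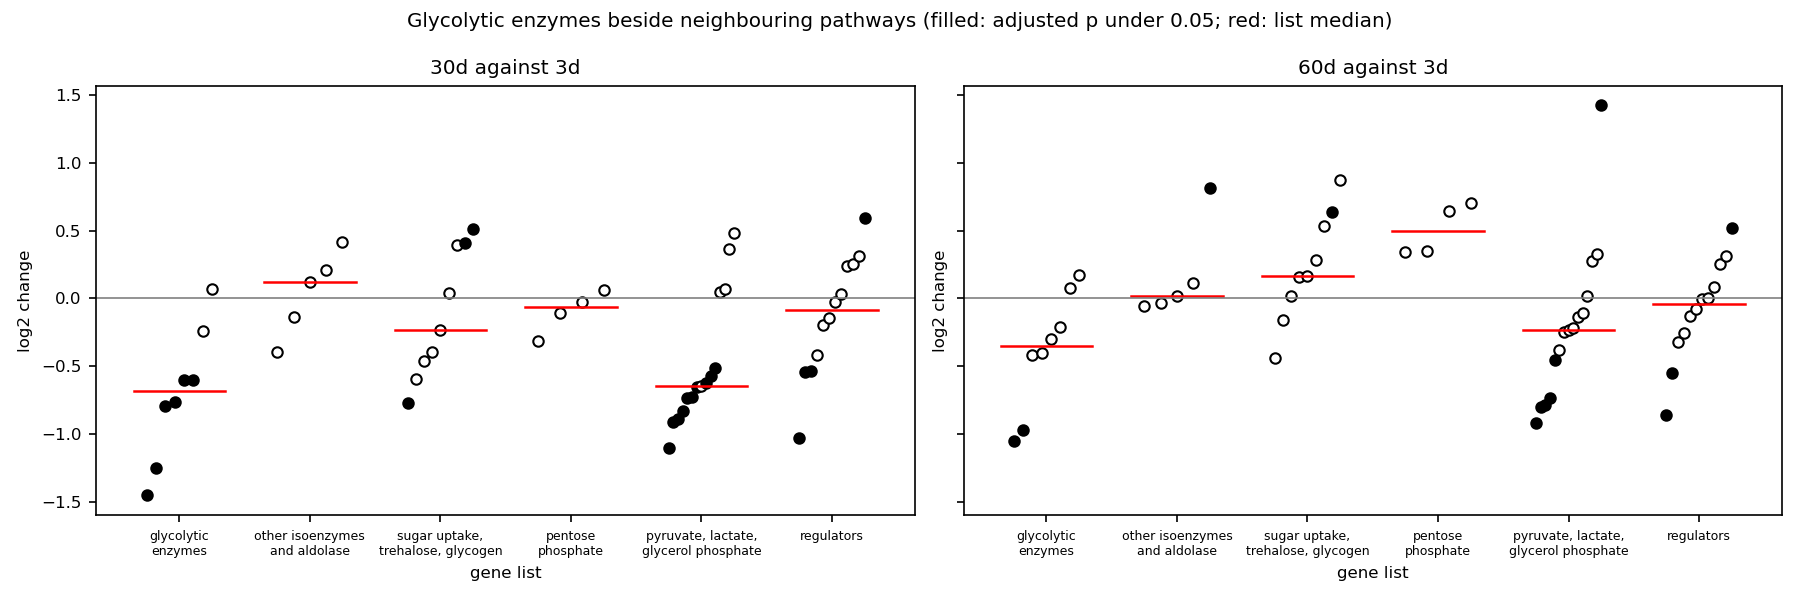
Log2 change (vertical axes) at 30d and 60d against 3d of the 8 glycolytic enzymes and of the tested genes of 5 neighbouring lists (horizontal axes); filled points had an adjusted p under 0.05 and red lines are list medians. The enzymes and the pyruvate, lactate and glycerol phosphate list have medians of -0.69 and -0.65 at 30d, and the pentose phosphate list has a median of 0.50 at 60d.

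The 5 genes whose profile was most like that of the enzymes were not glycolytic enzymes. Likeness was the root mean square difference over the 9 arrays between a gene's centred log2 level and the median of the 8 centred enzyme levels. The nearest were mRpS28, a mitochondrial ribosomal protein, at 0.0488, CG3776 at 0.0558, CG15111 at 0.0573, Blos1, a subunit of a lysosome biogenesis complex, at 0.0592, and CG9953 at 0.0608. Among the enzymes Tpi was nearest, at 0.0618, and Pgk farthest, at 0.385. All 5 genes fell between 3d and 30d, by 0.62 to 0.75, and in mRpS28 signals ran 412, 477 and 526 at 3d, 292, 282 and 315 at 30d, and 444, 322 and 344 at 60d. Like 6 of the enzymes, these 5 did not pass between 3d and 60d. They were chosen for likeness on these same 9 arrays, so changes close to those of the enzymes follow from the choice and are no separate result.

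Markers of neurons and glia were mostly not called, while their summed signals were lower at the later ages. The pan-neuronal elav read from 1237 to 1522 over all arrays. The glial repo read 766, 622 and 822 at 3d, 555, 615 and 547 at 30d, and 726, 589 and 600 at 60d. Every 30d array of repo was below every 3d array, though limma did not call it (adjusted p = 0.0755). Of fat body proteins, Fbp1 read 11.1 to 18.0, under the filter value, but Lsp2 read 61.2 to 735. At each age 13 of 17 head fat body markers had a mean above that value. The summed signal of 15 glia markers was 10947 to 12738 at 3d, 7934 to 8983 at 30d and 8857 to 10859.7 at 60d, and 5 of 13 tested fell, 1 rose and 7 did not pass at 30d against 3d, where 21.3% of all genes tested fell and 21.0% rose. That of 15 neuron markers was 16476 to 18308, 13124 to 14494 and 12711 to 13714, with 4 of 14 tested falling and 10 not passing at 30d, a share near that of all genes. At 60d against 3d 5 of 14 neuron markers fell, 0 rose and 9 did not pass, and of 13 glia markers 3 fell, 1 rose and 9 did not pass. Of all genes tested 10.5% fell and 8.03% rose in that comparison. The neuron markers had a median change of -0.08 from 30d to 60d, with 0 of 14 called for the difference between intervals by limma and 1 at an unadjusted p under 0.05. Of the glia markers 4 of 13 were called above 0 for that difference and 0 below, with a median of 0.72. Of all genes tested 10.1% were called above 0 and 8.3% below. Glial and neuronal sums thus lay lower at both later ages without overlap with 3d, for glia at 60d only narrowly (10859.7 against 10947). A sum is led by its brightest markers, and its link to the enzyme changes was not tested.

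Tissue that can come with a dissected brain varied too. The counts below are to be read beside the 21.3% of all genes tested that fell at 30d against 3d and the 21.0% that rose. Retina markers, 12 in number, summed to 14597 to 15755 at 3d, 11964 to 13009.5 at 30d and 9899 to 11169 at 60d, and 8 of 12 fell and 1 rose at 30d. Haemocyte markers summed to 2736 to 3409.8, 2029 to 2225 and 2439 to 3559 (13 matched, 5 of 12 tested fell and 2 rose at 30d). Muscle markers summed to 3646 to 4926, 5121 to 5334 and 4925 to 5725 (18 matched, 6 of 17 tested rose and 1 fell at 30d). Head fat body markers summed to 7986 to 9886, 6624 to 8378 and 6829.9 to 16302 (17 matched, 2 of 14 tested rose and 0 fell at 30d), with the highest sum on 60d replicate 1. At 60d against 3d 10.5% of all genes tested fell and 8.03% rose. There 8 of 12 retina markers fell and 0 rose, and 4 of 12 haemocyte markers fell and 1 rose. Of 17 muscle markers 0 fell and 4 rose, and of 14 head fat body markers 0 fell and 0 rose. For the difference between intervals 5 of 12 haemocyte and 3 of 14 head fat body markers were called above 0, and 0 and 1 below. Of retina and muscle markers 3 of 12 and 3 of 17 were called above 0, and 1 and 2 below. The part of these markers in the enzyme changes was not tested.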

How the data were processed

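Each of 18952 probe sets had a linear signal intensity per array in the deposited table, with every array at a trimmed mean of 150.002. GCRMA and MAS5 appear in the submitters' processing notes without roles or versions, and the sources used here do not say which made these values. Values were analysed as log2(signal + 1) with no further scaling. Probe sets were named by the platform annotation, with the brightest on average taken per gene and 183 control probe sets left out. A gene was tested if its log2 value was above 5.71, the 40th percentile over the whole table, on 3 or more arrays, as it was for 8171 of 11982. Group means for the 3 ages were fitted to all 9 arrays with limma 3.58.1 in R 4.3.3, two-sided, with Benjamini-Hochberg adjustment and a threshold of 0.05. The spread was thus pooled over ages, with 6 residual and 5.51 prior degrees of freedom. Code was tested on simulated data. Plots used Python 3.11.15 with matplotlib 3.10.9.

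The enzymes and the gene lists were chosen with earlier results of these data known, so their directions are not independent evidence. Of 83 neighbouring and regulatory names, alternative spellings included, 58 matched, and of 106 marker names 90. All enzymes are named; of each list those named are up to 3 called genes per direction with the largest changes at 60d against 3d and up to 2 at 30d against 3d, or, with none called, that with the smallest p. The 5 genes most like the enzymes are named by the likeness stated with them. A planned comparison of Gapdh1 with Gapdh2 could not be run without a Gapdh2 probe set. Alternatives covered normalization, filters, the pseudocount, probe set choice, arrays left out, arrays in the fit, a replicate block and RNA quality covariates. Intensities carry no read depth; precision is set by the 3 arrays per age.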

Additional observations from a re-analysis of the deposited data

Results flagged for a closer look

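The course of 4 enzymes differed between the intervals by the test of the difference itself, the later interval (30d to 60d) less the earlier one (3d to 30d). Of all genes tested 10.1% were called above 0 and 8.3% below. The calls of the 4 were not stable: 0 enzymes were called when any 30d array, 3d replicate 3 or 60d replicate 3 was left out or with no filter. Those fits called only 0 to 2 of all genes above 0 and 0 below, so the loss was not particular to the enzymes. No enzyme kept its call under every alternative. The difference was 1.86 for Pgk, 1.54 for Gapdh1, 1.37 for Pgi and 1.13 for Tpi. Groups of 3 arrays are too small for a test of single outlying arrays.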

How the results depend on the processing

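Of the 696 values of single enzymes under the 22 alternatives, 628 kept their direction and their side of the threshold, 33 lost a call, 23 gained one and 12 changed sign, all 12 in Hex-A or Pglym78. For 30d against 3d the calls of 4 enzymes (Pgi, Tpi, Gapdh1 and Pgk) held under every alternative, and for 60d against 3d those of 2 (Gapdh1 and Pgk). With single arrays left out, the number that fell ran from 4 to 6 at 30d against 3d and from 2 to 4 at 60d against 3d. The number that rose at 60d against 30d ran from 0 to 1, where 0.11% to 4.36% of all genes rose. The number called above 0 for the difference between intervals ran from 0 to 7, where 0% to 23.3% of all genes were. The medians then ran from -0.81 to -0.65 at 30d against 3d, from -0.51 to -0.21 at 60d against 3d, from 0.18 to 0.49 at 60d against 30d and from 0.86 to 1.18 for the difference between intervals. Without the first arrays of 3d and 60d, 6 enzymes fell at 60d against 3d, with a median of -0.60, where 24.8% of all genes fell and 26.3% rose. Median centring moved the median to -0.95 at 30d against 3d and to 1.37 for the difference between intervals, and the other 3' to 5' ratios as a covariate moved the latter to 1.22. Over all alternatives the count of all genes that fell ran from 871 to 2934 at 30d against 3d (1741 as reported) and from 313 to 2026 at 60d against 3d (855), and those above 0 for the difference between intervals from 0 to 1997 (829). With no filter, which tested 11982 genes, 0 enzymes were called for the difference between intervals. That fit called only 2 of all genes above 0 and 0 below.

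Signs turned in Hex-A with median centring at 60d against 3d (-0.092), 30d against 3d (-0.19) and the difference between intervals (0.29). At 60d against 30d Hex-A turned with quantile normalization (-0.041), cyclic loess (-0.016), the first arrays left out (-0.036) and single arrays left out (-0.036 to 0.063). Pglym78 at 60d against 3d turned with the first arrays left out (-0.12), the other 3' to 5' ratios (-0.017) and single arrays left out (-0.0053 to 0.38). Ald1 turned at 60d against 3d with median centring (-0.15), the first arrays left out (-0.042) and single arrays left out (-0.032 to 0.079), and at 30d against 3d with quantile normalization (0.025) and cyclic loess (0.0060). None of these was called, and the cause was not tested.

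Same-numbered arrays of different ages had correlations of -0.33 to 0.14 between their deviations from the age means. Arrays matched best with their own number in 5 of 18 cases. No pairing by number was thus visible, though 3 arrays per age cannot show that there was none. With the replicate number as a block 5 enzymes fell at 30d against 3d, 2 at 60d against 3d, and 3 were called for the difference between intervals, while 1527 of all genes fell and 1504 rose at 30d against 3d. Alternatives for named genes outside the 8 enzymes were chosen after seeing the data. The planned comparison of Gapdh1 with Gapdh2 was not run.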
